A study of Mus musculus with 18 samples.

Results

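The genes described here are 37 components of protein folding and of the unfolded protein response of the endoplasmic reticulum (ER), out of 37991 genes counted. They were taken by gene symbol from a set chosen with earlier results of these data known. They were matched to the count tables by Ensembl identifier, and every symbol was found. By role they comprise 11 chaperones and their helpers (Hspa5, Hsp90b1, Calr, Canx, Dnajb9, Dnajb11, Dnajc3, Sdf2l1, Hyou1, Creld2, Manf), 4 protein disulfide isomerases (Pdia3, Pdia4, Pdia6, P4hb) and 8 genes of ER-associated degradation (Sel1l, Syvn1, Herpud1, Edem1, Derl1, Derl2, Derl3, Os9). They also comprise the sensors Ern1, Eif2ak3 and Atf6 with Xbp1, and 10 genes of the Atf4 branch (Atf4, Atf3, Ddit3, Trib3, Asns, Chac1, Ppp1r15a, Sesn2, Psat1, Phgdh). The cells were plateable hepatocytes of male CD-1 mice, an outbred stock, kept frozen before use, and total RNA was sequenced from 6 groups of 3 libraries. The labels name no transgene or engineered allele in any group. The groups were PBS, the vehicle; TTR-siRNA alone (siRNA); scrambled REVERSIR alone (also labelled R-61); TTR REVERSIR alone (R-35); and 2 combinations, in which either the scrambled or the TTR REVERSIR was used with the siRNA. A REVERSIR is an oligonucleotide designed to pair with the guide strand of an siRNA and lift its silencing, and transthyretin (Ttr) is the silenced gene. The sources used here give no doses or times, and do not say that replicates were separate cultures, so p-values measure only the spread between these libraries, which may be technical.

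The unfolded protein response adjusts the folding capacity of the ER to its load of secretory proteins, and hepatocytes carry a heavy load because they make most plasma proteins. ER membrane proteins sense unfolded protein: Ern1 (IRE1) splices Xbp1 mRNA, Atf6 is cleaved to a transcription factor, and Eif2ak3 (PERK) phosphorylates the initiation factor eIF2 alpha. Spliced Xbp1 and cleaved Atf6 act on chaperone and degradation genes through ER stress response elements, whereas eIF2 alpha phosphorylation favours translation of Atf4, which acts on amino acid and stress genes through C/EBP-ATF response elements. Atf4 is also reached by kinases that answer amino acid shortage, viral RNA or haem shortage, so its targets can move apart from the chaperones. Changes in Xbp1 splicing, in cleavage of Atf6 and in translation of Atf4 are not visible in counts per gene.

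The promoters of the chaperone genes are shown first, because the elements that serve the chaperone genes and the Atf4 branch differ in sequence. RefSeq promoter windows on GRCm38.p6, from 250 bases before to 50 after the annotated start, were found for 33 of the 37 genes; those of Hyou1, Manf, Derl1 and Atf6 were not matched. The ER stress response element (ERSE) was searched on both strands as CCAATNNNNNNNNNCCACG. It stood in the windows of 9 of 20 chaperone, isomerase and degradation genes (Calr, Canx, Creld2, Derl3, Dnajc3, Hsp90b1, Hspa5, Pdia6, Syvn1), 0 of 3 windows of the sensors and Xbp1, and 0 of 10 Atf4 branch genes, against 39 of all 32851 windows, a share of 0.119%. ERSE-II, searched as ATTGGNCCACG, stood in the windows of Dnajb11 and Herpud1 and in 0.0365% of all windows. The C/EBP-ATF response element (CARE), searched as TGATGCAA, stood in those of Atf3, Chac1 and Herpud1 and in 0.895% of all windows, and the unfolded protein response element TGACGTGG stood in none of these genes' windows and in 0.676% of all. In Herpud1 the CARE and the ERSE-II do not overlap. A match is a description of the sequence and does not show binding. Only the letters given were searched, so variants of these elements were not counted. The upstream sequence of Hspa5 given below, for example, holds tgacgtga, which differs from TGACGTGG in its last base. Matches are in capitals in the following lines, read on the strand of the gene, and those of Calr, Atf3 and Chac1 lie on the opposite strand.
Hspa5, ERSE: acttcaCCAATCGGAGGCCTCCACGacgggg
Hsp90b1, ERSE: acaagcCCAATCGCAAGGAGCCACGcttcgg
Calr, ERSE: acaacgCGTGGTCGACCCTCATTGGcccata
Pdia6, ERSE: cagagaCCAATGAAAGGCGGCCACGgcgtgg
Herpud1, ERSE-II: gcgctgATTGGGCCACGttggac
Atf3, CARE: tcgcacTTGCATCAccaagt
Chac1, CARE: ctgccgTTGCATCActcctg

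The first base of the element lay 65 bases before the start of Hspa5 (shown stretch chr2:34772019-34772049, plus strand), 98 before that of Pdia6 (chr12:17266485-17266515, plus strand) and 162 before that of Calr (chr8:84847069-84847099, minus strand). Hsp90b1 held another ERSE match beside the one printed, which began 212 bases before its start (chr10:86705632-86705662, minus strand). Those of Herpud1 (chr8:94386371-94386393, plus strand), Atf3 (chr1:191183430-191183449, minus strand) and Chac1 (chr2:119351043-119351062, plus strand) began 52, 110 and 193 bases before the start. The 250 bases upstream of Hspa5 (chr2:34771840-34772089, plus strand) and of Trib3 (chr2:152344061-152344310, minus strand) are given whole, as Hspa5 and Trib3 were the chaperone and the Atf4 branch gene that passed the test described below. No searched motif stands in the Trib3 window.
Hspa5, upstream: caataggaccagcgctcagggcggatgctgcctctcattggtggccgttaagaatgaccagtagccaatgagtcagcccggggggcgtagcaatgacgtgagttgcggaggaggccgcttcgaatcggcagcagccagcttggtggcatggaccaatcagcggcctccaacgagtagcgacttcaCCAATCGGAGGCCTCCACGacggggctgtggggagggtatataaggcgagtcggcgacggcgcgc
Trib3, upstream: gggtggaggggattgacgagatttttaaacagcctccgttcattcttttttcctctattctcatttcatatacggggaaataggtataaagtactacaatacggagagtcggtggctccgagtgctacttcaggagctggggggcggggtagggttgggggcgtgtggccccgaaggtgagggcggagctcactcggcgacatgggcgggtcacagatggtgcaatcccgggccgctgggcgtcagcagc

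Library totals ran from 1755819 to 10145265 counts, of which the 37 genes held 0.490% to 0.774%. In PBS replicates 1 and 2 the mitochondrial ribosomal RNAs mt-Rnr1 and mt-Rnr2 took 24.3% and 24.1% of the counts, against 5.45% in PBS replicate 3 and 1.69% to 9.56% in the 15 treated libraries. Each comparison with PBS therefore rests on a control group in which 2 of the 3 libraries stand apart. The log2 differences of the 5 calls and the medians of the chaperone and degradation genes are given below with and without them. Other values against PBS are given with all 3 PBS libraries. Ttr, the targeted gene, stood at 93.0%, 97.2% and 110% of the PBS mean in the PBS libraries, at 19.8% to 22.8% in the 3 siRNA libraries and at 20.3% to 20.4% with the siRNA and the scrambled REVERSIR. It stood at 88.0% to 106% with the siRNA and the TTR REVERSIR, 95.7% to 104% with scrambled REVERSIR and 97.5% to 122% with TTR REVERSIR. The libraries thus match their labels as silenced or not silenced. Ttr cannot tell apart the groups within either kind. Summed hepatocyte markers ran from 48521 to 63427 CPM (counts scaled to a common library total after TMM adjustment), against 282 to 389 for Kupffer cells and macrophages, 45.4 to 70.7 for endothelium, 120 to 162 for stellate cells and 9.84 to 16.4 for cholangiocytes. The highest 2 hepatocyte sums were those of PBS replicates 1 and 2 (63427 and 58678). Stellate sums were 146 to 151 in PBS, 120.01 to 129.7 in siRNA and 128 to 136 with the siRNA and TTR REVERSIR, the groups in which Pdia6, Trib3, Pdia3 and Sel1l differed from PBS; the part of these cells in those results was not tested. Cholangiocyte sums were 13.5 to 16.4 in PBS and 9.84 to 13.3 with scrambled REVERSIR, the group in which Hspa5 differed from PBS. They were 10.9 to 13.3 with TTR REVERSIR and overlapped with PBS in the other groups. The part of cholangiocytes in the results was not tested either. None of the markers was at 0 in every library. Fewer cells of a type and less RNA per cell cannot be told apart in such bulk samples.

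Chaperones and isomerases dominated the level of the pathway. Per kilobase of exon, over all 18 libraries, the highest mean levels were 365 CPM for Hspa5 (BiP, the Hsp70 chaperone of the ER lumen), 322 for P4hb (the founding protein disulfide isomerase), 232 for Calr and 192 for Canx, the lectin chaperones of the glycoprotein folding cycle. Atf4 followed at 135 CPM per kilobase and Hsp90b1 (the ER Hsp90, GRP94) at 114. Hspa5 (286 to 430) and P4hb (294 to 341) overlapped over the libraries, as did Calr (192 to 257) and Canx (170.2 to 208), and Atf4 (121 to 147) and Hsp90b1 (98.6 to 134). P4hb and Calr did not overlap, nor did Canx and Atf4. Herpud1 stood at 71.0 and Atf3, a stress-induced transcription factor, at 53.7. Lower levels were found for Trib3 at 26.2, Chac1 at 8.42, Ddit3 (CHOP, a pro-apoptotic factor) at 8.15 and Sdf2l1, a BiP partner, at 4.84. Lowest of the tested genes was Syvn1, the ubiquitin ligase of the degradation channel, at 3.60. Derl3 had 0 counts in every PBS library and 0 to 4 counts in each other library; it did not pass the filter on low counts, so 36 of the 37 genes were tested.

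**Figure D1:**
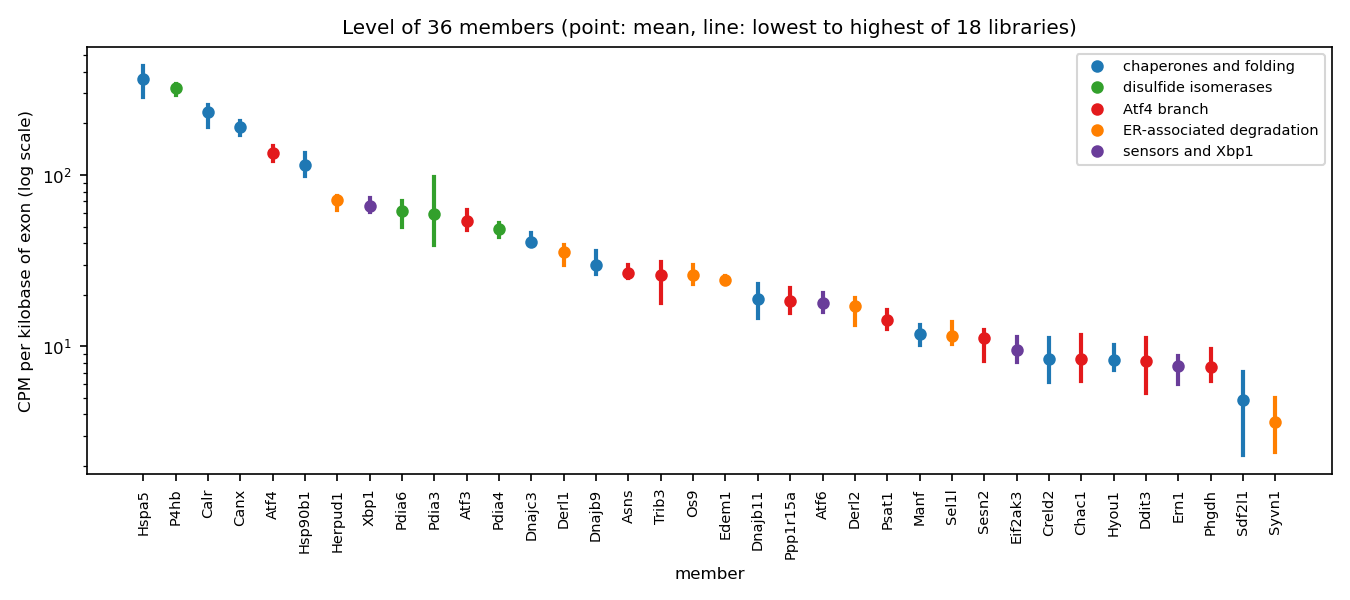
Mean level of the 36 tested genes in CPM per kilobase of exon on a log scale (points, coloured by role), with lines from the lowest to the highest of 18 libraries. Hspa5 and P4hb lie at the top and Syvn1 at the bottom; the widest lines for their level are those of Sdf2l1 and Pdia3.

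The highest library exceeded the lowest by 1.11 times for Edem1, the mannosidase-like degradation factor, and by 1.51 times for Hspa5. Larger ratios were found for Sdf2l1 (3.03 times), Pdia3 (2.48), Ddit3 (2.09) and Syvn1 (2.06). Sdf2l1, Ddit3 and Syvn1 are among the least abundant members and Pdia3 is not. Exons of Hsp90b1, Manf, Pdia3, Pdia4, Pdia6, Syvn1, Derl2, Ddit3 and Ppp1r15a overlap those of another annotated gene, and as the strand of counting is not given, the values of these genes are uncertain. In NCBIM37, the build of the counts, the genes that passed a test below lie at chr2:34627490-34632051 (Hspa5), chr2:121239511-121264423 (Pdia3), chr12:17273351-17291576 (Pdia6), chr12:93044483-93087597 (Sel1l) and chr2:152163158-152169768 (Trib3).

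Few of these genes differed from PBS past the test, and 1 chaperone, Hspa5, was among them. Past an adjusted p of 0.05 (edgeR quasi-likelihood test, Benjamini-Hochberg adjustment over 11153 genes), siRNA alone gave 2 of the 36 genes higher (Pdia6 and Trib3), where 2.62% of all genes passed in either direction. Scrambled REVERSIR gave 1 higher (Hspa5), with 0.421% of all genes, and TTR REVERSIR gave 0, with 0.699%. The siRNA with the scrambled REVERSIR gave 0, with 0.61%, and the siRNA with the TTR REVERSIR gave 2 lower (Pdia3 and Sel1l), with 0.789%. These 5 comparisons share the 3 PBS libraries, so they are not independent of each other. All 5 calls ended when only the groups compared were fitted, and when the share of mitochondrial ribosomal RNA was a covariate. Leaving out PBS replicates 1 and 2 together leaves 1 PBS library and no spread within the control. Only log2 differences are therefore given for that setting.

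At an unadjusted p under 0.05 the 36 genes gave 9 in siRNA (6 higher and 3 lower), where 20.1% of all genes lay under that limit. In the same order of groups the other counts were 6 with scrambled REVERSIR (background 14.7%), 7 with TTR REVERSIR (16.4%), 9 for the siRNA with the scrambled REVERSIR (17.7%) and 6 for the siRNA with the TTR REVERSIR (17.7%). Groups that did not overlap with PBS in any library were found for 6 genes with siRNA, against 19.4% of all genes, for 9 with scrambled REVERSIR (14.5%), 4 with TTR REVERSIR (12%), 3 with the siRNA and scrambled REVERSIR (19.2%) and 5 with the siRNA and TTR REVERSIR (16%). Most of these counts are near the shares of all genes; the 9 not overlapping with scrambled REVERSIR are above theirs, and the 3 for the siRNA with the scrambled REVERSIR are below.

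DESeq2 on the same counts called Calr, Pdia6 and Trib3 with siRNA (7.98% of the genes it gave an adjusted p), Hspa5 and Calr with scrambled REVERSIR (3.01%), and Pdia6 and Ern1 with TTR REVERSIR (4.81%). It called 0 genes for the siRNA with the scrambled REVERSIR (5.94%) and Pdia3 and Sel1l for the siRNA with the TTR REVERSIR (6.42%). In the authors' deposited table, Calr, Pdia6 and Trib3 were past 0.05 for siRNA (8.37% of genes with an adjusted p there), Hspa5 and Calr for scrambled REVERSIR (3.88%) and none for TTR REVERSIR (2.65%). The authors' deposited table also had Pdia3 for the siRNA with the scrambled REVERSIR (6.89%) and Pdia3 and Sel1l for the siRNA with the TTR REVERSIR (3.68%).

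Among the chaperones, Hspa5 rose with the scrambled REVERSIR. Its levels in replicates 1 to 3 were 1076, 1003 and 1329 CPM with PBS, 1264, 1317 and 1345 with siRNA, 1406, 1511 and 1503 with scrambled REVERSIR, and 1273, 1332 and 1207 with TTR REVERSIR. They were 1229, 1303 and 1320.0 CPM for the siRNA with the scrambled REVERSIR and 1237, 1215 and 1227 for the siRNA with the TTR REVERSIR. All 3 scrambled REVERSIR libraries lay above the other 15, while PBS replicates 1 and 2 lay below them and PBS replicate 3 lay among the treated libraries. Against PBS the log2 difference with scrambled REVERSIR was 0.38 ± 0.0822 (standard error; adjusted p = 0.047), and with PBS replicates 1 and 2 left out it was 0.15. Against PBS the other 4 treatments gave 0.11 to 0.20, and none passed. The call for Hspa5 ended without PBS replicate 1 (adjusted p = 0.193), PBS replicate 2 (0.258), scrambled REVERSIR replicate 2 (0.146) or replicate 3 (0.146), and in 10 runs without a library of another group (0.0506 to 0.062).

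**Figure D2:**
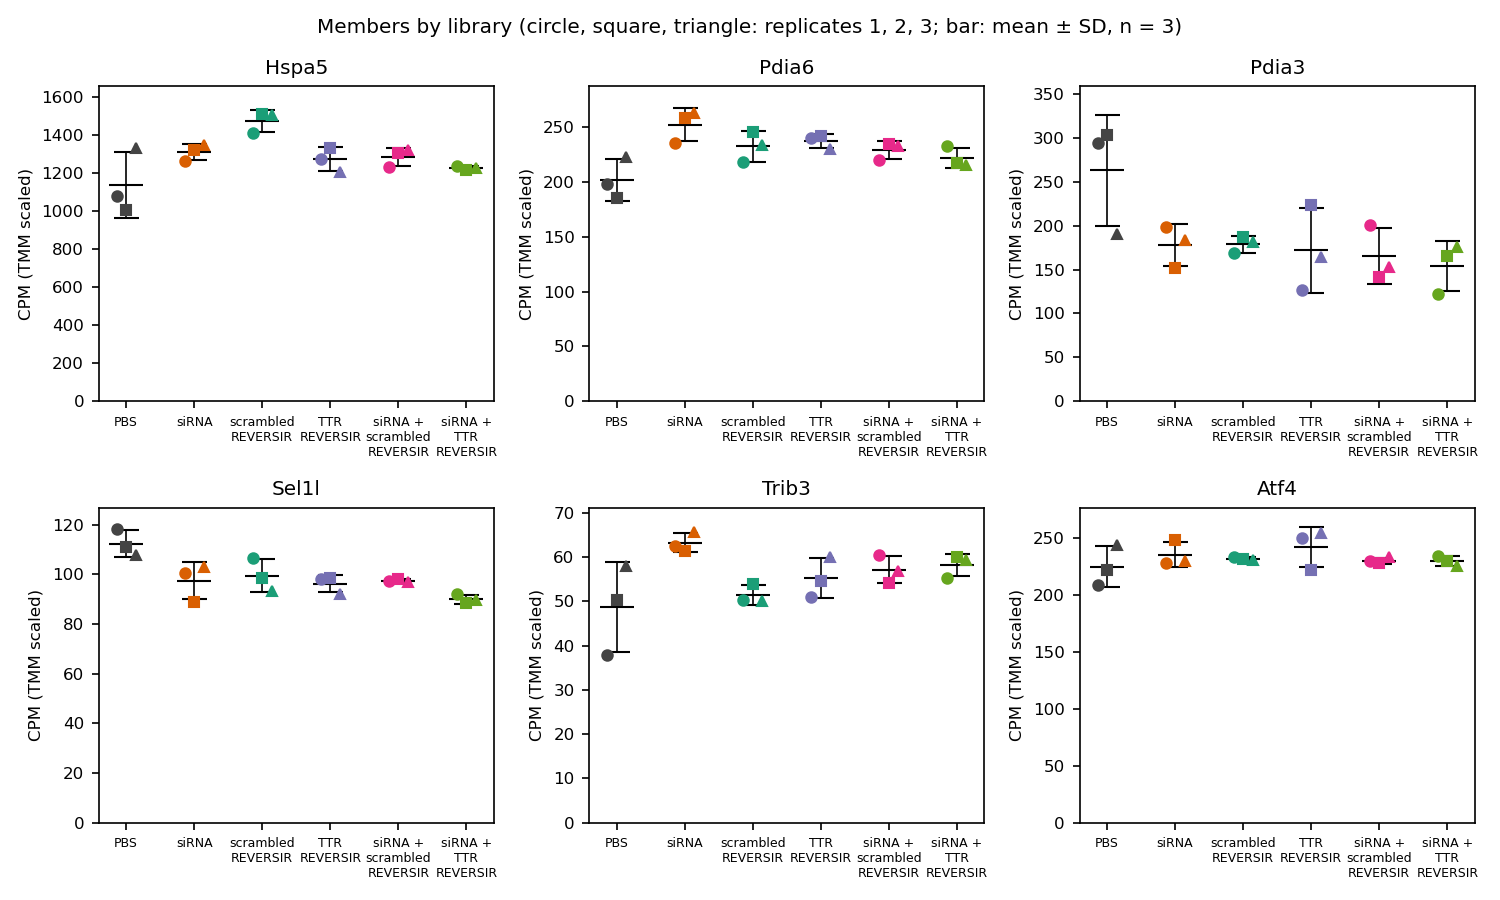
CPM by library for the 5 genes that passed the test in any comparison and for Atf4, with group means and SD (n = 3). PBS replicates 1 and 2 (circle and square) lie lowest for Hspa5 and Pdia6 and highest for Pdia3, and PBS replicate 3 (triangle) lies near the treated libraries in these 3 panels.

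Hsp90b1, which folds a narrower set of clients than BiP, stood at 480, 424 and 489 CPM with PBS, 437, 475 and 499.8 with siRNA, and 469, 539.6 and 519 with scrambled REVERSIR. It stood at 427, 495 and 398 CPM with TTR REVERSIR, at 429, 465 and 471 for the siRNA with the scrambled REVERSIR and at 421, 438 and 418 for the siRNA with the TTR REVERSIR. All groups overlapped with PBS, and the 5 log2 differences from PBS lay between −0.13 and 0.13 with adjusted p from 0.412 to 0.923. Calr, which was chosen here after its values were seen, gave 0.23 ± 0.074 with siRNA (adjusted p = 0.0879) and 0.27 ± 0.0748 with scrambled REVERSIR (0.0898).

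Sdf2l1 is among the chaperone genes most sensitive to ER stress, and it was barely counted here. Its levels were 2.58, 5.41 and 6.56 CPM with PBS, 5.47, 7.21 and 6.32 with siRNA and 3.78, 6.15 and 5.06 with scrambled REVERSIR. They were 6.28, 4.09 and 6.03 CPM with TTR REVERSIR, 5.01, 5.74 and 5.04 for the siRNA with the scrambled REVERSIR and 7.81, 2.97 and 5.02 for the siRNA with the TTR REVERSIR. The groups overlapped, and its log2 difference of 0.43 with siRNA carried a 95% interval from −0.20 to 1.05, so a change of that size was not detectable at this depth. Of the 11 chaperone genes, 9 had estimates above 0 with siRNA (median log2 difference 0.20) and 9 with scrambled REVERSIR (median 0.13), beside a median of 0.00 over all genes in both. The median was −0.01 with TTR REVERSIR, 0.03 for the siRNA with the scrambled REVERSIR and 0.01 for the siRNA with the TTR REVERSIR. Dnajb9, a BiP co-chaperone and target of spliced Xbp1, was the lowest of the role in 4 of the 5 comparisons with PBS, from −0.22 ± 0.0818 with siRNA (adjusted p = 0.125) to −0.13 with the siRNA and scrambled REVERSIR.

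Of the disulfide isomerases, Pdia6 rose with siRNA and Pdia3 fell with the siRNA and TTR REVERSIR, each against PBS. Pdia6, which forms and exchanges disulfide bonds and restrains Ern1, stood at 199, 185 and 223 CPM with PBS, 236, 259 and 263 with siRNA, 218, 246 and 234 with scrambled REVERSIR and 240.1, 242 and 230.1 with TTR REVERSIR. It stood at 220.1, 235 and 233 CPM for the siRNA with the scrambled REVERSIR and 233, 217 and 216 for the siRNA with the TTR REVERSIR. The siRNA libraries lay above all PBS libraries but overlapped with those of other treatments. The log2 difference of siRNA from PBS was 0.32 ± 0.0699 (adjusted p = 0.0207), and 0.19 with PBS replicates 1 and 2 left out. The call for Pdia6 ended without PBS replicate 1 (adjusted p = 0.182), PBS replicate 2 (0.111), siRNA replicate 2 (0.0849) or siRNA replicate 3 (0.0705).

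Pdia3 (ERp57), the isomerase that works with Calr and Canx on glycoproteins, was the most variable abundant gene of the set. Its levels were 294, 304 and 191 CPM with PBS, 198, 151 and 183 with siRNA, 168, 187 and 181 with scrambled REVERSIR and 127, 224 and 165 with TTR REVERSIR. They were 201, 141 and 153 CPM for the siRNA with the scrambled REVERSIR and 122, 165 and 176 for the siRNA with the TTR REVERSIR. PBS replicates 1 and 2 lay above the other 16 libraries, and PBS replicate 3 lay within the treated range. The siRNA with the TTR REVERSIR gave −0.77 ± 0.171 against PBS (adjusted p = 0.0415). The other 4 treatments gave −0.56 to −0.67 against PBS with adjusted p from 0.0576 to 0.137. With PBS replicates 1 and 2 left out, the value for the siRNA with the TTR REVERSIR was −0.30. The call for Pdia3 ended without PBS replicate 1 (adjusted p = 0.343) or PBS replicate 2 (0.204), without replicate 1, 2 or 3 of the siRNA with the TTR REVERSIR (0.164, 0.0639 and 0.0615), and without scrambled REVERSIR replicate 2 (0.0536) or TTR REVERSIR replicate 3 (0.0513). It also ended when the replicate number was fitted as a block (0.0561).

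The level of Pdia3 went with the share of mitochondrial ribosomal RNA in the library, also where PBS replicates 1 and 2 were left out. Over the other 16 libraries, with the group as a term in the same fit, log2 Pdia3 rose by 0.26 ± 0.0271 for each doubling of that share (adjusted p = 4.67e-07, edgeR, rank 11 of 11525 genes tested). This slope was examined after the data had been seen. Pdia3 was the only 1 of the 36 genes to pass, against 4.03% of all genes, and 7 had an unadjusted p under 0.05, against 15.4%. Among the treated libraries, TTR REVERSIR replicate 1 had the lowest share, 1.69%, and 127 CPM of Pdia3, whereas TTR REVERSIR replicate 2 had a share of 9.13% and 224 CPM. With the log2 share as a covariate over all 18 libraries, the difference of Pdia3 between the siRNA with the TTR REVERSIR and PBS was −0.25 (adjusted p = 0.391). The part of the share in the result was not tested beyond these fits.

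**Figure D3:**
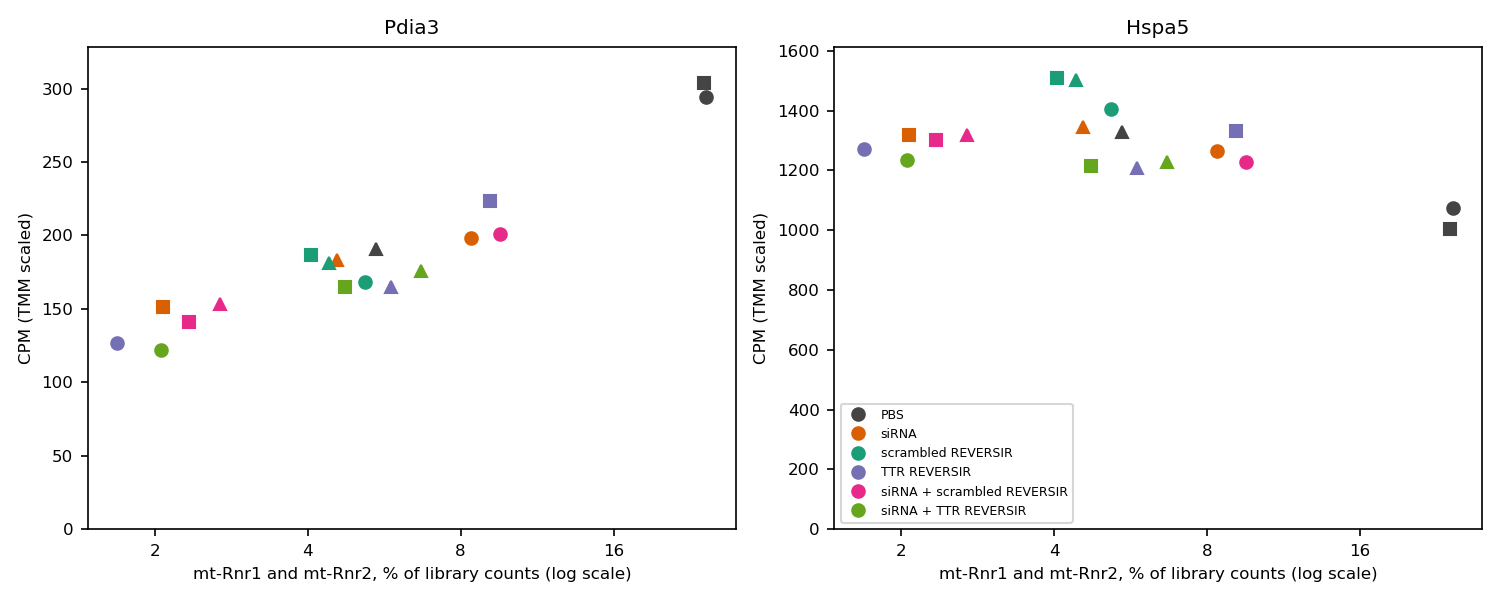
CPM of Pdia3 (left) and Hspa5 (right) against the percentage of counts from mt-Rnr1 and mt-Rnr2 (log scale), one point per library, coloured by group; circle, square and triangle are replicates 1, 2 and 3. Pdia3 is lowest at the left edge, at 122 and 127 CPM in 2 libraries, with others there standing higher. It reaches 294 and 304 CPM in PBS replicates 1 and 2 at the right. The lowest 2 Hspa5 values belong to the same 2 PBS libraries.

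PBS replicates 1 and 2 stood together outside all other 16 libraries for 9 of the 36 genes, 25.0%, against 13.4% of all genes. They lay above for Pdia3 and Sel1l and below for Hspa5, Calr, Pdia6, P4hb, Derl1, Derl2 and Atf4. PBS replicate 3 lay within the range of the treated libraries for 34 of the 36 genes, the exceptions being Sel1l and Edem1, and for 88.5% of all genes. Of the 5 genes that passed the test against PBS, 4 are among these 9, and Trib3 is the other.

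**Figure D4:**
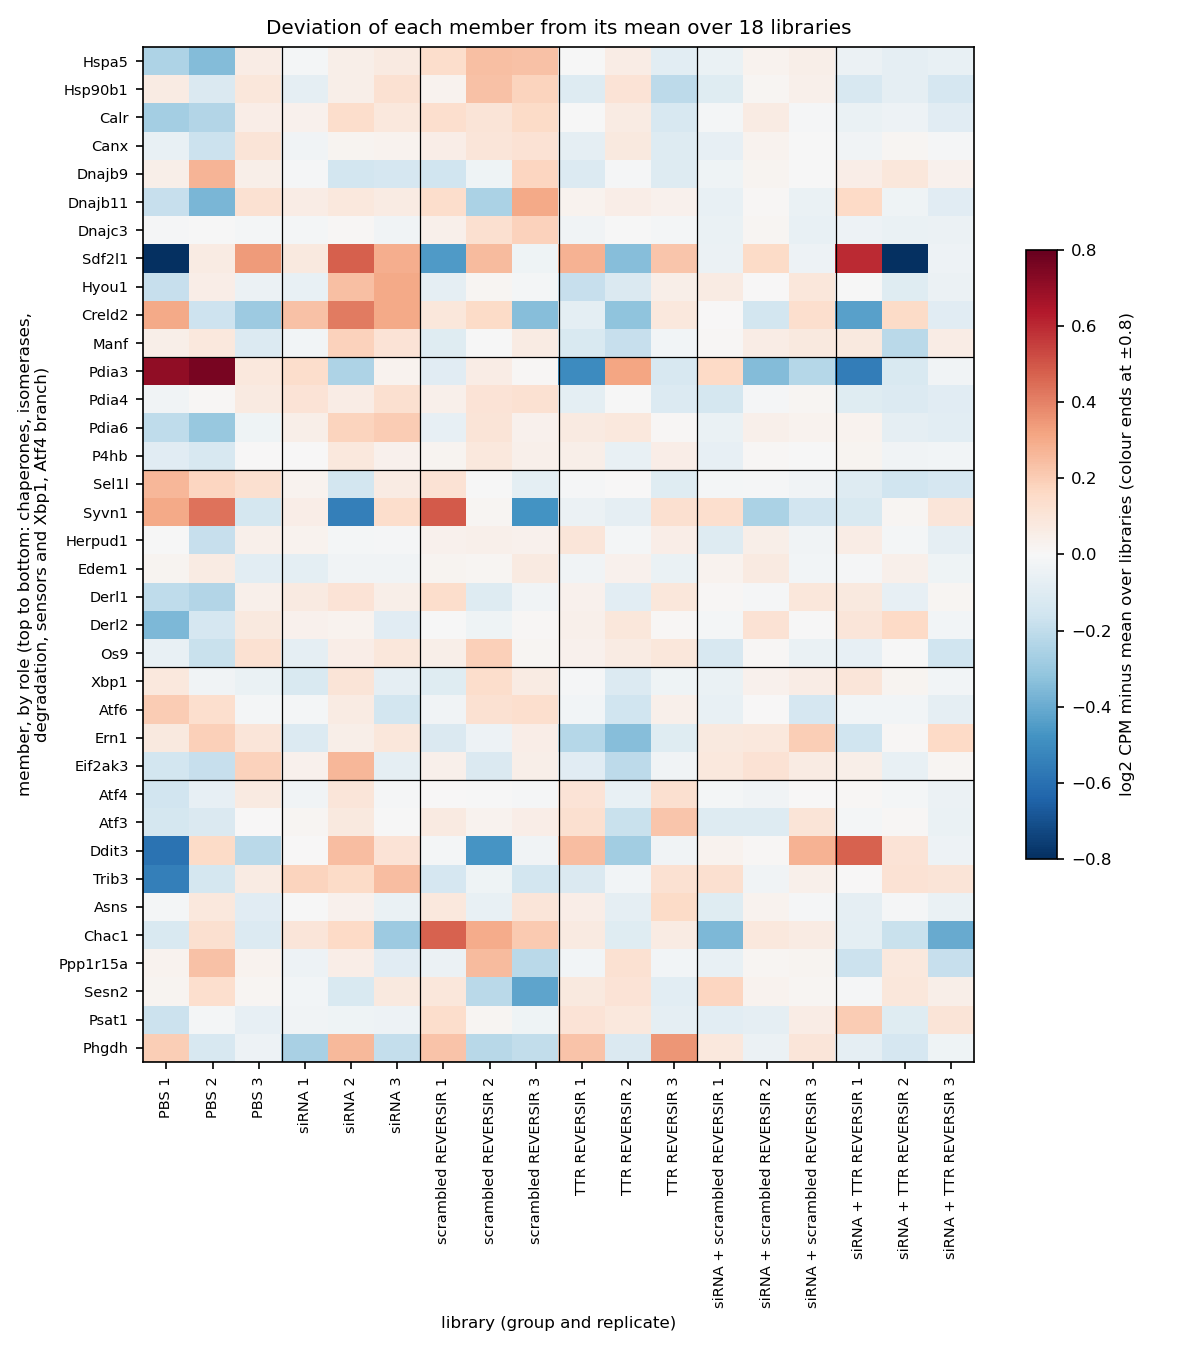
Deviation of log2 CPM from its mean over 18 libraries for the 36 tested genes (rows, by role) in each library (columns, by group); red is above and blue below the mean, and the colour ends at 0.8. In the first 2 PBS columns the colour is red for Pdia3 and blue for Hspa5, Calr and Pdia6, while the treated columns are pale for most genes.

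Of the degradation genes, Sel1l alone passed the test. It encodes the scaffold partner of the ubiquitin ligase Syvn1 in the ER membrane. Its levels were 118, 111 and 108 CPM with PBS, 101, 88.8 and 103 with siRNA, 107, 98.4 and 93.3 with scrambled REVERSIR and 97.9, 98.7 and 92.2 with TTR REVERSIR. They were 97.2, 98.0 and 96.7 CPM for the siRNA with the scrambled REVERSIR and 91.9, 88.3 and 89.7 for the siRNA with the TTR REVERSIR. All 3 PBS libraries lay above all 15 treated libraries. The siRNA with the TTR REVERSIR gave −0.32 ± 0.0666 (adjusted p = 0.0283), a direction that turned to 0.01 when library totals alone set the scale and the median gene moved to 0.33. The other 4 treatments gave −0.17 to −0.23 (adjusted p from 0.0916 to 0.279). With PBS replicates 1 and 2 left out the value for the siRNA with the TTR REVERSIR was −0.25. The call for Sel1l ended without PBS replicate 1 (0.343), PBS replicate 2 (0.145) or replicate 1, 2 or 3 of the siRNA with the TTR REVERSIR (adjusted p of 0.085, 0.0705 and 0.0647).

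Herpud1, which ties the degradation machinery to the proteasome and carries both an ERSE-II and a CARE match, was steady. It stood at 165, 146 and 170.2 CPM with PBS, 169, 164 and 164 with siRNA, 169, 170.2 and 169.8 with scrambled REVERSIR and 177, 164 and 172 with TTR REVERSIR. It stood at 154, 171 and 163 CPM for the siRNA with the scrambled REVERSIR and 172, 164 and 158 for the siRNA with the TTR REVERSIR. The groups overlapped, and the 5 differences from PBS lay between 0.02 and 0.10 on the log2 scale with adjusted p from 0.504 to 0.907. The 7 tested degradation genes had medians from −0.0049 to 0.10 against PBS. Their lowest estimate was that of Syvn1 for the siRNA with the scrambled REVERSIR (−0.30 ± 0.174, adjusted p = 0.384) after Sel1l, and their highest that of Derl2, a channel component, for the siRNA with the TTR REVERSIR (0.21 ± 0.0797, adjusted p = 0.171).

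Neither the sensors nor Xbp1 passed in edgeR in any comparison, whereas DESeq2 called Ern1 lower with TTR REVERSIR against PBS (adjusted p = 0.0491). Xbp1, whose total transcript was counted without regard to splicing, stood at 228, 211 and 207 CPM with PBS, 197, 231 and 204 with siRNA, 201, 237 and 225 with scrambled REVERSIR and 214, 199 and 209.5 with TTR REVERSIR. It stood at 207, 219.9 and 224 CPM for the siRNA with the scrambled REVERSIR and 229.6, 218 and 212 for the siRNA with the TTR REVERSIR. All groups overlapped, and its log2 differences from PBS lay between −0.05 and 0.04, with adjusted p from 0.784 to 0.961. Ern1 had the lowest estimate of the role, −0.33 ± 0.0923 with TTR REVERSIR (adjusted p = 0.0798), where its 53.3, 49.1 and 58.2 CPM lay below the 65.9, 71.2 and 66.6 of PBS. Atf6 was lowest for the siRNA with the scrambled REVERSIR (−0.17 ± 0.0704, adjusted p = 0.202), and Eif2ak3 was the highest in 4 of the 5 comparisons, at most 0.13 ± 0.0941.

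In the Atf4 branch, Trib3 rose with siRNA. Trib3 is a pseudokinase induced by Atf4 and Ddit3 that feeds back on both. Its levels were 37.9, 50.2 and 58.0 CPM with PBS, 62.6, 61.5 and 65.6 with siRNA, 50.3, 54.0 and 50.04 with scrambled REVERSIR and 51.1, 54.6 and 60.1 with TTR REVERSIR. They were 60.5, 54.2 and 56.9 CPM for the siRNA with the scrambled REVERSIR and 55.3, 59.9 and 59.3 for the siRNA with the TTR REVERSIR. The 3 siRNA libraries lay above the other 15, by little where the nearest was 60.5 CPM. The log2 difference from PBS was 0.39 ± 0.104 (adjusted p = 0.044), and 0.14 with PBS replicates 1 and 2 left out. Beside the scrambled or the TTR REVERSIR the siRNA gave 0.25 ± 0.103 and 0.27 ± 0.103 against PBS, and neither passed (adjusted p = 0.211 and 0.178). The call for Trib3 ended without PBS replicate 1 (0.337), PBS replicate 2 (0.111) or siRNA replicate 1, 2 or 3 (adjusted p of 0.0925, 0.108 and 0.124), and in 6 runs without a library of another group (0.0503 to 0.0583).

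Atf4 itself was nearly level. It stood at 208, 222 and 244 CPM with PBS, 228, 248 and 230.2 with siRNA, 233, 232 and 231 with scrambled REVERSIR and 250.03, 222 and 254 with TTR REVERSIR. It stood at 229.8, 228 and 233 CPM for the siRNA with the scrambled REVERSIR and 234, 229.6 and 225 for the siRNA with the TTR REVERSIR. All groups overlapped with PBS, and the differences lay between 0.03 and 0.11 on the log2 scale with adjusted p from 0.411 to 0.855. Ddit3, at a low count, stood at 9.12, 15.3 and 11.8 CPM with PBS, 13.8, 16.3 and 14.9 with siRNA, 13.6, 9.91 and 13.5 with scrambled REVERSIR and 16.3, 11.4 and 13.5 with TTR REVERSIR. It stood at 14.02, 13.9 and 16.7 CPM for the siRNA with the scrambled REVERSIR and 19.1, 14.9 and 13.4 for the siRNA with the TTR REVERSIR. These groups overlapped with PBS too, and the highest difference of Ddit3, 0.41 for the siRNA with the TTR REVERSIR, had a 95% interval from 0.04 to 0.77 and an adjusted p of 0.231.

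Asns, the asparagine synthetase and a sensitive target of amino acid shortage, did not move past the test. It stood at 72.2, 77.3 and 68.6 CPM with PBS, 72.8, 75.0 and 70.4 with siRNA, 77.6, 70.1 and 78.1 with scrambled REVERSIR and 75.8, 69.6 and 81.4 with TTR REVERSIR. It stood at 68.3, 74.4 and 72.6 CPM for the siRNA with the scrambled REVERSIR and 69.6, 72.6 and 70.3 for the siRNA with the TTR REVERSIR. The groups overlapped, and the differences from PBS lay between −0.04 and 0.07. At the edges of the branch, Chac1, a glutathione-degrading enzyme at a low count, had 0.37 ± 0.182 with scrambled REVERSIR (adjusted p = 0.343). Sesn2, a stress-induced inhibitor of growth signalling, had −0.21 ± 0.114 in the same comparison (adjusted p = 0.415). Psat1 and Phgdh of serine synthesis, Atf3 and Ppp1r15a, the phosphatase subunit that reverses eIF2 alpha phosphorylation, passed in none of the comparisons.

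The 22 tested chaperone, isomerase and degradation genes were set beside the 10 Atf4 branch genes. Against PBS, their median log2 differences were 0.08 and 0.03 with siRNA, 0.11 and 0.04 with scrambled REVERSIR, and 0.00 and 0.12 with TTR REVERSIR. They were 0.02 and 0.03 for the siRNA with the scrambled REVERSIR and 0.00 and 0.01 for the siRNA with the TTR REVERSIR, and the median of all genes lay within 0.01 of 0 in each. The order of the 2 medians thus differed between the scrambled and the TTR REVERSIR. The difference of the branches within a library, chaperone minus Atf4, was −0.04, 0.09 and 0.07 with scrambled REVERSIR and −0.11, 0.07 and −0.10 with TTR REVERSIR, so these groups overlapped. The median deviation of the Atf4 branch from its mean was 0.08, −0.02 and −0.03 in the scrambled REVERSIR libraries and 0.09, −0.07 and 0.09 in those of TTR REVERSIR. That of the chaperone and degradation genes was 0.04, 0.07 and 0.04 with scrambled REVERSIR and −0.02, 0.00 and −0.01 with TTR REVERSIR, and here the libraries did not overlap. The SD between replicates was 0.0396 for the chaperone and degradation median and 0.0649 for the Atf4 branch median. With PBS replicates 1 and 2 left out, the chaperone and degradation medians against PBS became −0.0019 with siRNA, 0.023 with scrambled REVERSIR, −0.043 with TTR REVERSIR, −0.043 for the siRNA with the scrambled REVERSIR and −0.033 for the siRNA with the TTR REVERSIR.

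**Figure D5:**
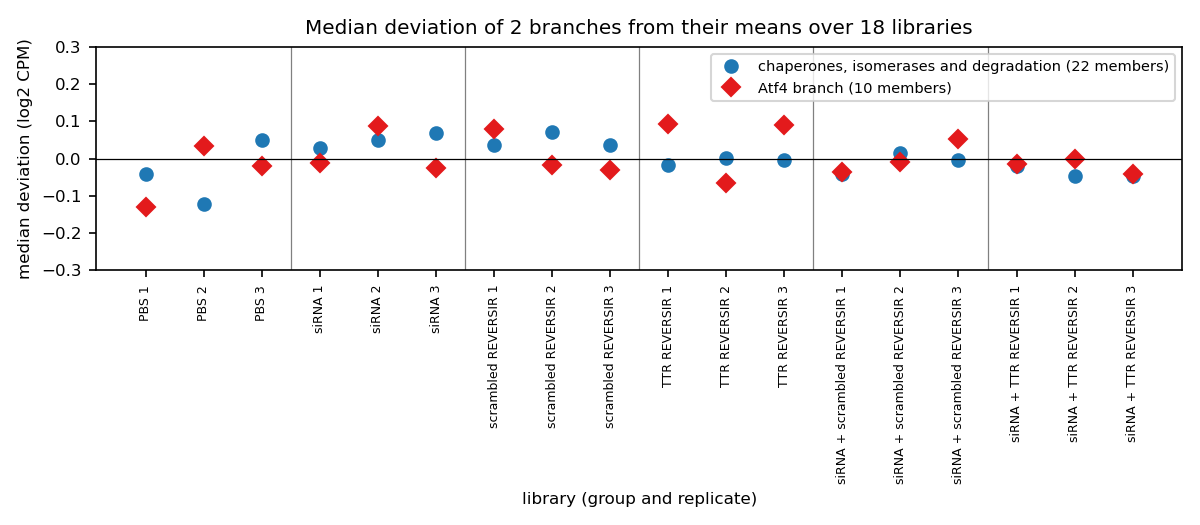
Median deviation of log2 CPM from the mean over 18 libraries for 22 chaperone, isomerase and degradation genes (circles) and 10 Atf4 branch genes (diamonds), by library. Points lie between −0.13 and 0.09, and within each group the 2 branches cross or lie close; the lowest circle is PBS replicate 2 and the lowest diamond PBS replicate 1.

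Pairs of genes went both ways from library to library. After group means were taken off, the median Pearson r between genes over the 18 libraries was 0.04 within the chaperone and degradation genes (231 pairs), 0.17 within the Atf4 branch (45 pairs) and −0.03 between the 2 sets (220 pairs). Single pairs ran from −0.86 to 0.91 within the chaperone and degradation genes and from −0.31 to 0.79 within the Atf4 branch, where 29 of the 45 lay above 0. These values are descriptions, as all pairs share the same libraries and the spread of PBS replicates 1 and 2 around their group. Genes with an ERSE or ERSE-II match (10 tested) and those of the same roles with a window but no match (9) kept no fixed order over all comparisons. Those with a match had the higher median in each comparison with PBS, and these comparisons share the PBS libraries. The medians with and without a match were 0.05 and −0.02 with TTR REVERSIR, 0.02 and −0.02 for the siRNA with the scrambled REVERSIR, and 0.04 and −0.04 for the siRNA with the TTR REVERSIR. Their medians were 0.13 and 0.07 with scrambled REVERSIR against PBS, and 0.13 and 0.06 with siRNA against PBS, where Hspa5, Calr and Pdia6 are among the genes for which PBS replicates 1 and 2 lay below all other libraries. Without PBS the medians were −0.11 and −0.05 for TTR against scrambled REVERSIR, −0.11 and −0.04 for the siRNA and scrambled REVERSIR against scrambled REVERSIR, and −0.07 and −0.11 for the siRNA and TTR REVERSIR against siRNA.

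Comparisons that leave PBS out contrast none of its 3 libraries. These libraries still entered the same fit and its estimate of spread. In none of the 7 did any of the 36 genes pass the adjusted test in edgeR or in DESeq2. The siRNA with the TTR REVERSIR was compared with the siRNA alone, which asks what changes when silencing is lifted. There 0 genes passed (0.00897% of all genes in edgeR and 1.41% of the 991 genes to which DESeq2 gave an adjusted p). At an unadjusted p under 0.05 there were 4 genes lower and 0 higher, against 5.98% of all genes. These were Creld2 (−0.45 ± 0.158), Hyou1 (−0.22 ± 0.0847), Pdia4 (−0.20 ± 0.0575) and Pdia6 (−0.19 ± 0.0685), with adjusted p of 0.689, 0.744, 0.643 and 0.706. Hyou1 is the nucleotide exchange factor of BiP, and Creld2 and Pdia4 are folding enzymes induced by ER stress. Pdia4 stood at 128, 124 and 129.9 CPM with siRNA and at 111, 111 and 112 with the TTR REVERSIR added, without overlap. The median was −0.10 for the chaperone and degradation genes, of which 18 of 22 had estimates below 0, and −0.04 for the Atf4 branch.

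The scrambled REVERSIR added to the siRNA, which left Ttr silenced, gave 0 adjusted calls against siRNA alone (0.0% of all genes in edgeR and 0.0% in DESeq2). At an unadjusted p there were 2 genes lower, against 3.72%: Creld2 (−0.33 ± 0.155) and Pdia4 (−0.14 ± 0.0573). Of the 22 chaperone and degradation genes, 19 had estimates below 0 here as well, all but Dnajb9, Edem1 and Derl2, with a median of −0.05, and the Atf4 branch had a median of −0.02. Both comparisons share the 3 siRNA libraries, and the proportion of all genes with estimates below 0 is not given for either. The counts of directions are therefore not read as a common fall of these genes. The direct comparison of the 2 combinations, TTR against scrambled REVERSIR over the siRNA, gave 0 genes by the adjusted test (0.00897% in edgeR, 0.00897% in DESeq2) and 0 at an unadjusted p, against 2.17%. For Creld2 its difference was −0.12 with a 95% interval from −0.44 to 0.21, and for Pdia4 −0.05 from −0.17 to 0.06. The values of these genes were therefore not shown to differ between the 2 REVERSIR sequences.

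The TTR REVERSIR alone was compared with the scrambled REVERSIR alone, oligonucleotides that differ in their base sequence. No gene of the set passed (0.0179% of all genes in edgeR and 0.0269% in DESeq2), and 4 were lower at an unadjusted p, against 7.33%. Hspa5 gave −0.21 (95% interval −0.38 to −0.04, adjusted p = 0.571), Hsp90b1 −0.22 (−0.38 to −0.05, adjusted p = 0.551), Pdia4 −0.16 ± 0.0655 and Dnajc3, the inhibitor of eIF2 alpha kinases that also helps BiP, −0.13 ± 0.0579. For Atf4 the difference was 0.07 with a 95% interval from −0.07 to 0.21, and for Trib3 0.09 from −0.16 to 0.34. The siRNA with the scrambled REVERSIR against the scrambled REVERSIR alone gave 0 adjusted calls (0.0179% in edgeR, 0.0179% in DESeq2). It had 5 genes lower and 1 higher at an unadjusted p, against 6.22%. Dnajc3, Hspa5, Hsp90b1, Pdia4 and Chac1 were at −0.15, −0.20, −0.16, −0.13 and −0.41, and Sesn2 was at 0.23. Both comparisons use the same 3 scrambled REVERSIR libraries, in which Hspa5 was highest.

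For the siRNA with the TTR REVERSIR against the TTR REVERSIR alone there were 0 adjusted calls (0.0% in edgeR, 0.0% in DESeq2) and 1 gene at an unadjusted p, Ern1 at 0.21 ± 0.0888, against 4.44%. The interaction, which asks whether the siRNA acts differently beside the TTR than beside the scrambled REVERSIR, gave 0 (0.00897% in edgeR, 0.00897% in DESeq2) and 0 at an unadjusted p, against 5.39%. For Hspa5 the interaction was 0.15 with a 95% interval from −0.09 to 0.39, for Pdia6 −0.07 from −0.28 to 0.13 and for Trib3 −0.07 from −0.39 to 0.25. Differences of that width remain within these intervals.

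Other genes of the same pathways were followed as 3 lists, to be read against the 0.699% of all genes that passed with TTR REVERSIR and the 2.62% with siRNA, both against PBS. Of 56 tested genes of ER folding, translocation and degradation, 1 passed in any comparison: Spcs1, a signal peptidase subunit, was higher with TTR REVERSIR against PBS (0.43 ± 0.0988, adjusted p = 0.0426). Of 20 tested regulators of the unfolded protein response, 1 passed: Bax, the pore-forming apoptosis effector, was higher in the same comparison (0.39 ± 0.089, adjusted p = 0.0426). Of 36 tested further Atf4 targets, 1 passed: Vldlr, a lipoprotein receptor, was lower with siRNA against PBS (−0.28 ± 0.061, adjusted p = 0.0212). The medians of the 3 lists lay between −0.05 and 0.07 in all comparisons with PBS, and no gene of them passed in a comparison without PBS. The alternative scalings and sets of libraries were not run for the genes of these lists. Among the 10 tested hepatocyte markers, Trf and Serpina1c were lower with siRNA against PBS (−0.56 ± 0.113 and −0.61 ± 0.133), where 2.62% of all genes passed. PBS replicates 1 and 2 held the highest summed hepatocyte markers (63427 and 58678 CPM), and their part in both differences was not tested. For Serpina1c, PBS replicates 1 and 2 held 1595 and 1576 CPM and PBS replicate 3 held 877, within the 796 to 978 of the treated libraries; Serpina1c has near-identical paralogs, so its counts are uncertain.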

How the data were processed

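Total RNA of 18 libraries in 6 groups of 3, grouped by sample titles, was analysed from the raw read counts per gene that the authors deposited. STAR, DESeq2 and the build NCBIM37 are named, without versions, per the submitters' processing notes. The authors' 5 deposited tables against PBS hold a mean signal after size-factor scaling, log2 fold changes and their errors, Wald scores and p-values; they were used only where named. The sources used here do not give the counting tool or its strand setting.

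Genes were filtered with filterByExpr by group, which left 11153 genes, scaled by TMM and fitted over all 18 libraries with edgeR 4.0.16 (R 4.3.3) quasi-likelihood models with 12 residual degrees of freedom; 12 comparisons were tested, with Benjamini-Hochberg adjustment and a threshold of 0.05. Standard errors come from the F statistic. DESeq2 1.42.0 and other scalings, filters and sets of libraries were alternatives. The fits were tested on simulated data. No 2 libraries of a group differed by as little as sampling noise. Positions are from GENCODE for NCBIM37 and promoter sequences from RefSeq for GRCm38.p6. The members and lists were chosen with earlier results of these data known. Values in every library were given for members past 0.05 in any comparison and for 9 fixed members; others were named at the ends of their role, and pathway or marker genes where they passed.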

Additional observations from a re-analysis of the deposited data

How the results depend on the processing

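All counts here are of the 36 tested genes past an adjusted p of 0.05. Apart from DESeq2, the shares of all genes that passed in these settings are not given. The counts therefore do not set these genes apart from all others. Library totals alone, which move the median gene by 0.29 to 0.33, gave 24 (siRNA), 11 (scrambled REVERSIR), 17 (TTR REVERSIR), 20 (siRNA + scrambled REVERSIR) and 21 (siRNA + TTR REVERSIR) against PBS. They turned Dnajb9 to 0.10 (siRNA) and 0.11 (TTR REVERSIR), Atf6 to 0.15 and 0.18 (siRNA with scrambled and with TTR REVERSIR), and Sel1l, in the order above, to 0.12, 0.12, 0.085, 0.11 and 0.0062. Without a filter there were 3 with scrambled REVERSIR, 2 with TTR REVERSIR and 1 with siRNA + scrambled REVERSIR, and DESeq2 gave 2 for either REVERSIR alone. The counts for siRNA, scrambled REVERSIR and siRNA + TTR REVERSIR were 0, 0 and 0 with only the groups compared and with the mitochondrial share as a covariate. Leaving out PBS replicates 1 and 2 together leaves 1 PBS library, so only fold changes are given. It turned Hspa5 with siRNA to −0.016 and Derl2 with TTR REVERSIR to −0.029. For siRNA + scrambled REVERSIR it turned Hspa5 to −0.044, Calr to −0.035, Derl1 to −0.0045, Derl2 to −0.041 and Trib3 to −0.013. The cause of these differences was not tested beyond the fits named.

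Each library was also left out in turn. In the same order the counts were 0 to 9, 0 to 4, 0 to 8, 0 to 9 and 0 to 7. The highest counts came without PBS replicate 3, which left PBS replicates 1 and 2 as the only controls. The shares of all genes that passed in these runs are not given. The counts therefore do not set the tested genes apart from all others. For the 7 comparisons without PBS all such runs gave 0. Replicate numbers did not pair the samples (median r of deviations −0.013 over 45 pairs of the same number, 0.0011 over 90 others; 6 of 18 libraries were closest to their own number); with the replicate block, siRNA + TTR REVERSIR kept 1 of its 2 calls, Sel1l. DESeq2 size factors and TMM without mitochondrial ribosomal RNA changed the direction or call of none of the 54 fold changes compared. Low counts limit Sdf2l1, Ddit3, Creld2, Chac1 and Syvn1.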
